A study of Homo sapiens with 6 samples.

Results

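HepG2 cells, a human hepatoma line, were compared after 24 h with an extract of Scutellaria baicalensis and without it. Scutellaria baicalensis is a plant of the mint family whose root is rich in flavones. The treated cells had received the extract at 100 µg/ml for 24 h, and the control carries no treatment, time or dose in its labels. Cells of both groups were seeded on dishes the day before the experiment and grown in the same serum-containing medium. The study followed expression over time, and arrays of cells exposed for 1, 3, 6 and 12 h complete the 6 one-colour Agilent arrays. Each group is 1 array, so no difference below has a p-value or a spread between cultures, and every statement describes these 2 arrays. No control labelled as cultured for the same 24 h was analysed here, so the extract and the time in culture cannot be told apart.

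A gene was compared when at least 1 of its probes was well above background and unsaturated on both arrays. This held for 13171 of 17483 named genes. A further 3350 genes were not well above background on either array, 543 were dim on the control array alone, 246 were dim on the 24 h array alone, 166 had a saturated signal, and 7 had probes that fell into different classes. A gene's difference is the log2 signal at 24 h minus that of the control, each scaled to the array's 75th percentile, on the gene's brightest measured probe. The median difference of all measured genes was 0.005 and their SD was 0.77. In all, 934 genes (7.09%) were at least 2-fold higher at 24 h and 1266 (9.61%) at least 2-fold lower, and 60 and 232 of them were at least 4-fold apart. The split depends on the scaling, since 42.5% of these calls were higher with the 75th percentile, 64.3% with the array median and 52.3% after quantile normalization.

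Several response systems frame these values. The aryl hydrocarbon receptor (AhR) is a ligand-activated transcription factor that binds planar aromatic compounds, plant flavonoids among them, and switches on xenobiotic-metabolising enzymes such as CYP1A1. Sterol regulatory element-binding proteins drive the enzymes of cholesterol and fatty acid synthesis when sterols run low, and the liver is a main site of both pathways. Metallothioneins are small cysteine-rich proteins that bind zinc and copper, and replication-dependent histones supply the chromatin made in S phase.

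The 75th percentile of signal was 768 on the control array and 1640 on the 24 h array, within a range of 153 to 1900 over the 6 arrays, and 69.8% and 71.1% of probes were well above background. Saturated probes numbered 335 and 656. Repeated spots of a probe had an SD of 0.0772 and 0.0741 log2 units. Different probes of a gene disagreed far more, with an SD of 0.69 for the difference of a single probe over 4667 genes with 2 or more measured probes, and that value serves below as the error of a single-probe difference. The spike-in spots, RNA added in a known amount, stood 1.57 log2 units below the 75th percentile on the control array and 2.78 below it at 24 h. Scaling to the spike-ins would thus add 1.21 to every difference, and the differences below are relative to the bulk of genes.

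Agreement between probes separated a small part of the calls. Among the 4667 genes with several measured probes, 75 (1.61%) had every probe at least 2-fold higher and 99 (2.12%) had every probe at least 2-fold lower. The brightest probe alone had placed 243 and 442 of these genes past 2-fold, so all probes agreed for 30.9% and 22.4% of them. In 84 genes, 1 probe was at least 2-fold higher and another at least 2-fold lower. The least-moved probe had a median of 2.29-fold higher in the first set and 2.46-fold lower in the second. Probe pairs overlapping by 20 or more bases are not separate readings, and 2 of the 75 and 13 of the 99 genes include such a pair, some beside further probes. Just inside the threshold lay UPF3A, WDR74 and GBA2, whose least-moved probes were 1.01, 1.00 and 1.00 higher, and just outside it RALB, POGLUT1 and ZNF222.

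**Figure D1:**
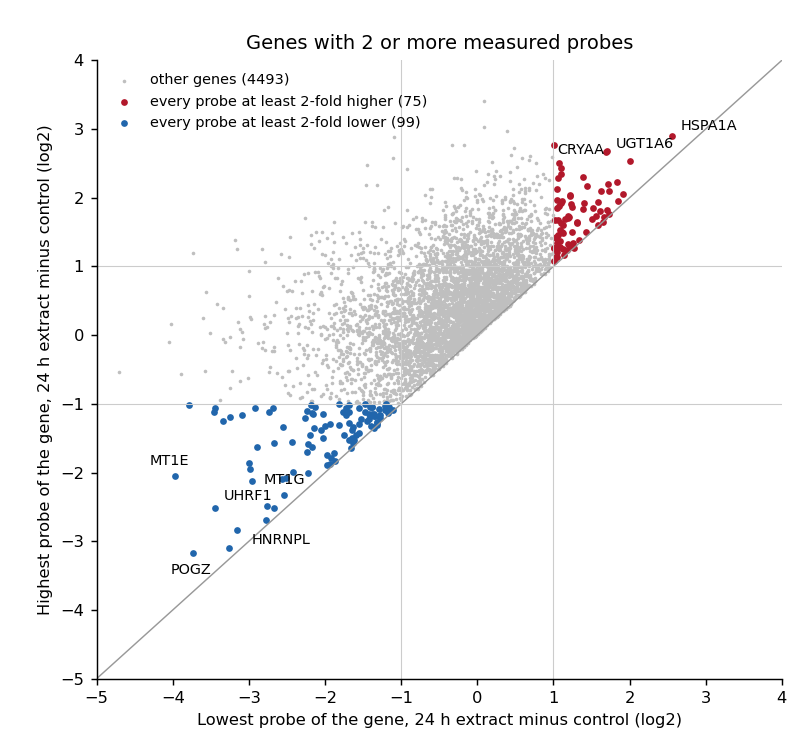
Lowest against highest probe difference (24 h extract minus control, log2) of each of the 4667 genes with 2 or more measured probes, 1 point per gene; grey lines mark 2-fold, and the diagonal marks equal probes. The 75 red genes have every probe at least 2-fold higher, the 99 blue genes every probe at least 2-fold lower, and most genes past a grey line on one probe lie inside it on another.

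CYP1A1, the AhR-induced monooxygenase of polycyclic aromatic compounds, had the largest difference among the measured AhR targets. Its signal was 1440 on the control array and 27100 at 24 h, a difference of 3.14 log2 units or 8.81-fold after scaling, on a single probe. AHRR, the repressor induced by the receptor it restrains, went from 19.9 to 151, 1.83 higher. UGT1A6, which conjugates phenols with glucuronic acid, read 223 and 1540 on its brighter probe and 30.9 and 419 on its dimmer one, differences of 1.69 and 2.67, so both of its probes exceeded 2-fold. Transcripts of the UGT1A cluster share their later exons, and which of them a probe read was not tested. EREG, an epidermal growth factor receptor ligand, was 1.25 higher. ALDH3A1, an aldehyde dehydrogenase of the same battery, was dim on the control array and was at least 8.74-fold higher at 24 h, and CYP1B1 was at least 1.44-fold higher on the same bound; both were chosen after their values were seen.

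The list was not uniform. Of 9 measured AhR targets 4 were at least 2-fold higher and none lower, beside 7.09% higher over all genes, and the list median was 0.48. CYP1A2 and TIPARP were both 0.59 below the control (-0.59 each) and NQO1 differed by -0.58, within the error of a single probe. Keeping only probes within 4 log2 units of the 75th percentile left out AHRR, EREG and LRAT, whose control signals were 19.9, 33.4 and 15.8, and turned the median to -0.49. It was -0.25 with another background correction. AHRR and EREG came to 0.60 and 0.43 with that correction, whereas CYP1A1 and UGT1A6 moved by less than the error of a probe.

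Promoters are shown for CYP1A1 and UGT1A6, the AhR targets with the largest difference and with agreeing probes. The sequences are the 250 bases before the transcription start of CYP1A1 (chr15:74725529-74725778, minus strand) and of UGT1A6 (chr2:233691452-233691701, plus strand), from RefSeq on GRCh38.p14, printed along the gene's strand. Capitals mark the receptor's core motif GCGTG, searched on both strands. It occurs 57 bases before the start of CYP1A1 and 200 before that of UGT1A6.
CYP1A1: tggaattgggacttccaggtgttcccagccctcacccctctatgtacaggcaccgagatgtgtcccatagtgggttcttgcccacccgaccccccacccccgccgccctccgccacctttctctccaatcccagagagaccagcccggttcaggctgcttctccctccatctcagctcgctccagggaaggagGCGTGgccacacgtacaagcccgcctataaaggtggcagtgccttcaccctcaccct
UGT1A6: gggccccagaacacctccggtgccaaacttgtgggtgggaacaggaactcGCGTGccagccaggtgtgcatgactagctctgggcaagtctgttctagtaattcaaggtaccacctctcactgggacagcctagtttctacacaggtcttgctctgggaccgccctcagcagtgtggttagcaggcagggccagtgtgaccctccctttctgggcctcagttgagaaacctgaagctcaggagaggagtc
The motif was in 6 of the 9 AhR-target promoters of the table, in 31.9% of all 27305 promoters and in 43.6% of those of measured genes. CYP1A2 and NQO1, which were not higher, hold no match in this window, but TIPARP holds 2 and SLC7A5 holds 1, and neither was higher. A match is a description of the letters, and binding was not measured.

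Enzymes of cholesterol synthesis lay mostly above the control. All 21 listed genes were measured, 20 had a difference above 0, 5 were at least 2-fold higher, beside 7.09% of all genes, and none was 2-fold lower, with a median of 0.58. NSDHL, a sterol dehydrogenase of the late pathway, read 94.6 on the control array and 1380 at 24 h, 2.77 log2 units or 6.83-fold higher. MVD, which makes isopentenyl diphosphate, read 323 and 3360, a difference of 2.28. These 2 genes were each read by 1 probe. HMGCS1, which makes HMG-CoA, had both probes above 2-fold, at 1.92 and 1.10. SC5D, a sterol desaturase, was 1.20 higher on its brighter probe and 0.33 on its dimmer one.

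The rest of the pathway moved less. SQLE, the squalene epoxidase, was 0.59 higher, IDI1 0.83 and EBP 0.94, each under or near the error of a single probe. LSS, the cyclase that closes the sterol rings, was the exception at -0.56 on its brightest probe and 1.26 on another, and MVK spanned 0.58 to 2.58 and MSMO1 -0.74 to 1.01. The list median ranged from 0.55 to 0.79 over the alternatives other than spike-in scaling. NPC1L1, an intestinal and hepatic sterol importer, was 1.05 higher. In the list of sterol regulation and uptake 1 of 15 measured genes was at least 2-fold higher and none lower. Over all genes the shares were 7.09% and 9.61%, and the list median was 0.39.

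The promoter of NSDHL (chrX:152830813-152831062, plus strand, GRCh38.p14, 250 bases before the start, RefSeq) is shown for its CCAAT boxes, the docking letters of NF-Y, a cofactor of the sterol regulatory factors. Capitals mark CCAAT on either strand.
NSDHL: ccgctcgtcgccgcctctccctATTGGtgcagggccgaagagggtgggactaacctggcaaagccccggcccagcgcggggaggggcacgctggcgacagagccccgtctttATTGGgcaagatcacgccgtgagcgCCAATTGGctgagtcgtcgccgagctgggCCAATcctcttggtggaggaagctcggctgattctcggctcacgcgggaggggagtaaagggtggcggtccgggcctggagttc
It holds 5 matches, of which 2 overlap on opposite strands. The box was in 12 of 16 cholesterol-synthesis promoters of the table, against 33.0% of all promoters and 35.4% of those of measured genes. The sterol element TCACNCCAC was in none of the 16 and in 0.875% of all promoters, which says only that these letters are not in the window. The AhR core GCGTG was in 13 of the 16, NSDHL included with 3 matches.

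Fatty acid and triglyceride synthesis showed a similar pattern with more spread. At least 2-fold higher were 7 of its 20 measured genes and lower was 1, beside 7.09% and 9.61% of all genes, with a median of 0.50. SCD, the desaturase that makes oleate, read 2480 on the control array and 31000 at 24 h on its brightest probe, 2.55 higher, but its other 2 probes were 0.69 and 0.84 higher, so no more than 1.61-fold is shared by all. FASN, the fatty acid synthase, read 246 and 2310, a difference of 2.14. AGPAT2, an acyltransferase of phosphatidic acid synthesis, went from 31.5 to 270, 2.005 higher, and came to 0.72 with the other background correction. GPAT4, the glycerol-3-phosphate acyltransferase of the endoplasmic reticulum, is not in the list and was 1.83 and 2.23 higher on its 2 probes. THRSP, a regulator of lipogenesis, was the exception at -2.07 on a probe that read 59.8 and 30.5. Fatty acid oxidation had 0 genes higher and 3 lower among 19, with a median of 0.03.

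**Figure D2:**
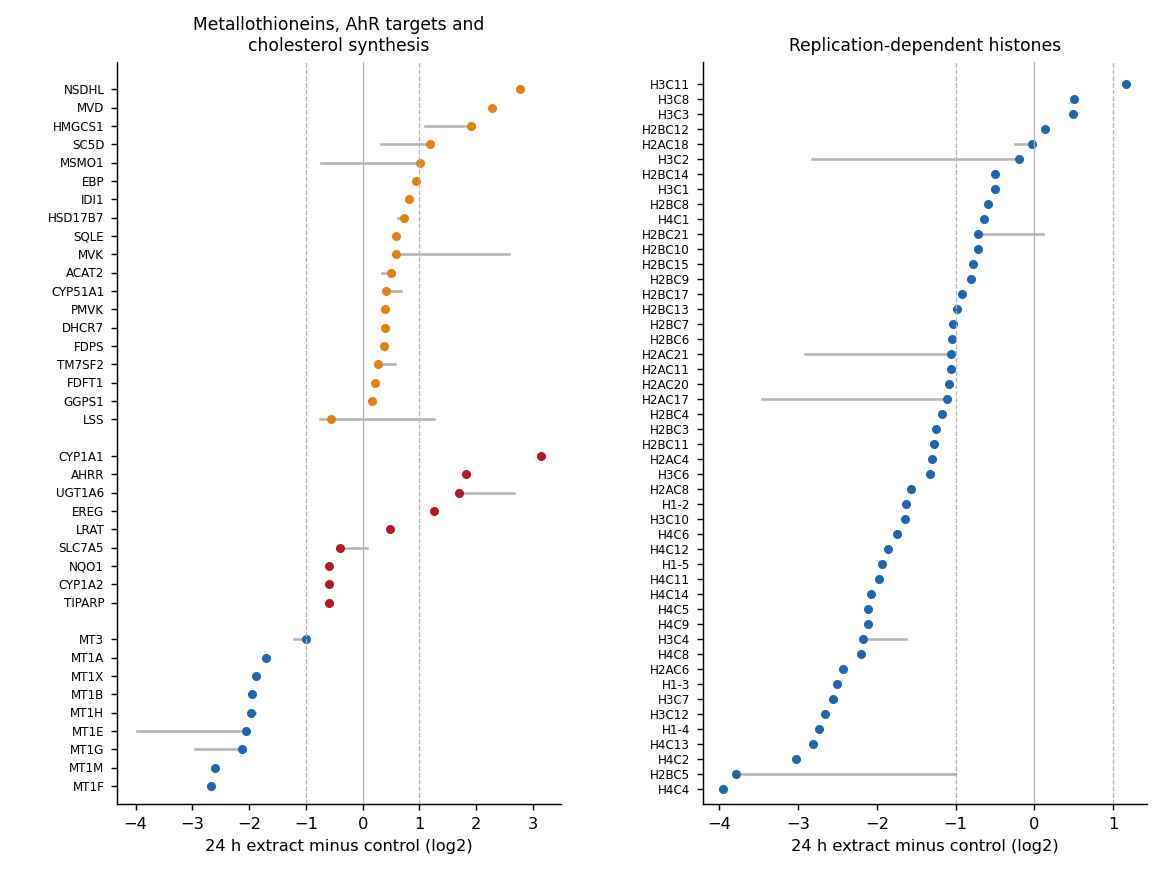
Differences (24 h extract minus control, log2) of measured members of 4 gene lists: left, cholesterol synthesis (orange), AhR targets (red) and metallothioneins (blue); right, replication-dependent histones. Points are a gene's brightest measured probe and grey bars span all of its measured probes; 18 of the 19 plotted cholesterol genes lie above 0, and all 9 metallothioneins and 44 of 48 histones below it.

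HSPA1A, the stress-inducible HSP70 chaperone, led the genes whose probes agreed. Its signal was 229 on the control array and 2880 at 24 h on one probe, and 73.9 and 1180 on the other, differences of 2.56 and 2.90 or 5.89-fold and more. HSPA1B encodes a near-identical chaperone, and the share of each in the signal was not tested. Among 18 heat shock genes 2 exceeded 2-fold upwards and 1 downwards, beside 7.09% and 9.61% of all genes, with a median of 0.16. HSPA8, the constitutive HSP70, was 3.00 higher on a probe that read 785 and 13400, while its 3 brighter probes saturated at 24 h. The 4 probes of DNAJB6, an HSP40 co-chaperone, spanned -1.77 to 0.04, and HSP90AA1 spanned -0.98 to 0.85. Outside the list, TCP1, a chaperonin subunit, was 1.39 and 1.84 higher and STIP1, a co-chaperone, 1.04 and 1.42, both chosen after their values were seen.

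The 250 bases before the start of HSPA1A (chr6:31815293-31815542, plus strand, GRCh38.p14, RefSeq) hold 1 heat shock element, searched as GAANNTTC or TTCNNGAA on both strands and shown in capitals.
HSPA1A: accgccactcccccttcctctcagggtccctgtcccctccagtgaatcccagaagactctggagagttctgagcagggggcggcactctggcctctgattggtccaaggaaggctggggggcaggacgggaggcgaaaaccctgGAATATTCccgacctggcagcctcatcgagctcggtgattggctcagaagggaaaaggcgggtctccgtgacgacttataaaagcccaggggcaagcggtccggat
The element was in 6 of 17 heat shock promoters, with 1 match for HSPA1A and HSPA1B each, 4 for HSPA8 and 2 for DNAJB6. It was in 11.7% of all promoters and in 8.80% of those of measured genes.

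The most raised genes with agreeing probes also included 9 genes of varied roles. CRYAA, an alpha-crystallin with chaperone activity, read 221 and 1890 on one probe and was 2.002 and 2.54 higher. INTS11, the endonuclease of the Integrator complex, was 1.91 and 2.05 higher. MAPKAP1, a subunit of mTOR complex 2, was 1.85 and 1.95 higher, and SRP68, a subunit of the signal recognition particle, 1.73 and 2.10. PRMT5, an arginine methyltransferase, read 3790 and 26300 on its brighter probe and was 1.70 and 2.68 higher. AQP3, a glycerol and water channel, was 1.71 and 1.82 higher, from 577 to 4020 on its brighter probe. CD2BP2, a component of the spliceosome, ST7 and OTUB1, a deubiquitinating enzyme, were 1.72, 1.71 and 1.67 higher on their least-moved probes. Each of these 9 genes thus exceeded 3-fold on all of its probes, and their probes were read on the same 2 arrays.

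Factors of ribosome biogenesis and aminoacyl-tRNA synthetases lay mostly above the control. In ribosome biogenesis 6 of the 35 genes measured exceeded 2-fold upwards, beside 7.09% of all genes, and none downwards, 30 were above 0, and the median was 0.59. WDR46, a nucleolar scaffold protein, read 126 and 2830, 3.39 higher and the largest positive difference in any list, on 1 probe. RRP12 and NOP56, factors of pre-ribosome maturation, were both 2.16 higher, NOP56 on a probe that read 1850 and 17700 beside 2 brighter ones that saturated at 24 h. PPAN, a factor of the large subunit, had both probes above 2-fold at 1.71 and 1.21. Among 20 aminoacyl-tRNA synthetases, the enzymes that charge tRNAs, 7 were at least 2-fold higher and 1 lower, again beside 7.09% and 9.61%, with a median of 0.58. KARS1 read 395 and 3400, a difference of 2.01, and QARS1, CARS1 and YARS1 were 1.91, 1.89 and 1.69 higher, all on single probes.

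The proteasome list had 3 of 24 genes higher, near the 7.09% of all genes, and none lower, with a median of 0.35. Its ATPase PSMC5 read 710 and 6940, 2.19 higher, and PSMD2, a scaffold subunit, was 1.75 higher. Mitochondrial ribosomal proteins also had a share of calls near that of all genes, 3 of 28 higher and none lower, with a median of 0.05, with MRPS5 at 1.65. Most cytosolic ribosomal protein genes were saturated, which left 10 of 28 measured, 6 of them below 0, with a median of -0.07. Their probes were at odds, as in RPS2, whose 4 measured probes spanned -2.83 to 1.26.

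Metallothioneins were lower at 24 h in every measured member. All 9 measured genes were at least 2-fold lower, beside 9.61% of all genes, with a median of -1.98, and the median stayed below 0 under each alternative, at -0.77 with spike-in scaling. The 5 genes with several probes had every probe at least 2-fold lower, although the probes of MT1X overlap by 48 bases and are not separate readings. MT1G read 32600 on the control array and 16000 at 24 h on one probe, and 10100 and 2780 on the other, differences of -2.12 and -2.96. MT1E, at 20800 and 10700, differed by -2.05 on one probe and -3.97 on the other. MT1F read 5850 and 1960, a difference of -2.67, and MT1M 5060 and 1780, a difference of -2.60. The raw 24 h signals of these 4 genes were below those of the control although the 24 h array was brighter as a whole.

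The remaining members closed up behind them. MT1H differed by -1.98 and -1.90, MT1B by -1.95, MT1X by -1.88 and -1.93, MT1A by -1.71 and MT3, the neuronal form, by -1.003 and -1.21. MT2A, the main liver isoform, was saturated on the control array on both probes and unsaturated at 24 h, so it was at least 3.12-fold lower. MT4 was dim on the control array, at 3.25, and read 60.7 at 24 h on its 1 probe. It thus went the other way, at least 2.39-fold higher. Probes of these near-identical genes shared runs of up to 27 bases with a probe of another metallothionein, so single members are uncertain. Among the MT1 probes the shortest such runs, of 9 or 10 bases, were in the probe of MT1M and in the lower probes of MT1G and MT1E. Only probes were compared with each other, so matches to the rest of another member's transcript were not searched, and these probes may not be specific. Zinc transporters had 1 of 21 genes higher and 4 lower, beside 7.09% and 9.61% of all genes, with a median of -0.03. The importer SLC39A9 differed by -2.01 and SLC39A10 by -1.86.

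Metallothionein promoters carry metal regulatory elements, the docking letters of the zinc sensor MTF1, and the promoter of MT2A (chr16:56608334-56608583, plus strand, GRCh38.p14, 250 bases before the start, RefSeq) shows 7. Capitals mark TGCACNC or TGCGCNC on either strand.
MT2A: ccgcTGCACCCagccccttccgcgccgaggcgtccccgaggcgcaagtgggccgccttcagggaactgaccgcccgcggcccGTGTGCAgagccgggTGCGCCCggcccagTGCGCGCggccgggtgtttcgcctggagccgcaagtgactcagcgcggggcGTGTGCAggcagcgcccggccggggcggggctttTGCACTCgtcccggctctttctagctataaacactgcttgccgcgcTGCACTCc
The element was in all 5 metallothionein promoters of the table, with 8 matches for MT1H, 4 for MT1X and 3 for MT1B, and in 24.7% of all promoters and 32.2% of those of measured genes.

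Replication-dependent histones, whose messenger RNAs end in a stem-loop in place of a poly(A) tail, were the second family far below the control. Of 48 measured genes 32 were at least 2-fold lower and 1 higher, beside 9.61% and 7.09% of all genes, 44 were below 0, and the median was -1.26, or -0.05 with spike-in scaling. H4C4 read 6760 on the control array and 932 at 24 h, a difference of -3.95. H4C2 read 27900 and 7300, a difference of -3.03, and H4C13 42700 and 13000, a difference of -2.81. H2BC5 read 3330 and 514 on its brighter probe, a difference of -3.79, but 430 and 455 on its dimmer one, a difference of -1.01. H2AC14, which is not in the list, had both probes at least 2-fold lower, at -2.57 and -2.09.

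The histone classes differed in depth. The median was -2.22 for 4 linker H1 genes and -2.11 for 11 H4 genes, with 10 of the 11 H4 genes at least 2-fold lower, and -1.10 for 8 H2A, -0.93 for 15 H2B and -0.92 for 10 H3 genes. H3C11 was the 1 member at least 2-fold higher, at 1.17, and H4C3, saturated on the control array alone, was at least 2.35-fold lower. Histone copies are near-identical, so probes may read several of them. Fewer cells in S phase and less histone RNA per cell cannot be told apart in RNA of whole cultures. The 10 replication-independent histones had a median of -0.17, with 2 at least 2-fold lower (H2AX at -1.35 and MACROH2A1 at -1.25). H3-3B was 1.01 higher on one probe and 0.08 on the other. DNA replication factors, which share S phase with the histones, had 3 of 31 at least 2-fold lower, close to the 9.61% of all genes, none higher, and a median of -0.47, which became 0.74 with spike-in scaling; RRM2, a subunit of ribonucleotide reductase, differed by -2.02 and -1.499 on its 2 probes. Mitosis genes had 1 of 28 higher and 1 lower and a median of -0.02.

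Of 10 listed non-histone RNAs lacking a poly(A) tail 2 were on the array. Both were at least 2-fold lower on their brightest probe, beside 9.61% of all genes. Probes without a gene name and probes not designed to RefSeq transcripts are also given here, and the ends of the RNAs they read are not known. MALAT1, a nuclear RNA without a conventional poly(A) tail, read 18000 and 4940 on its brightest probe, a difference of -2.96, while its other 3 probes were at -3.34, -0.87 and 0.40. RNU12, a small nuclear RNA of the minor spliceosome, read 2050 and 737, a difference of -2.57. Probes that could not be named, most of them designed to expressed sequence tags and other database entries, had 416 of 7607 at least 2-fold higher (5.47%) and 1782 at least 2-fold lower (23.4%), with a median of -0.32. Named probes designed to RefSeq transcripts had 9.81% higher and 9.85% lower. Within 752 genes that had both kinds of probe, the RefSeq probe had a median of 0.08 and the other probe -0.19, and the other probe was the lower of the pair in 480. What part the RNA's end or the probe's target has in the histone values was not tested.

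The most lowered genes with agreeing probes included regulators of chromatin and of RNA. POGZ, a zinc-finger chromatin protein, read 2090 on the control array and 334 at 24 h on one probe and 1190 and 283 on the other, differences of -3.74 and -3.17, the deepest in this set. HNRNPL, a splicing regulator, had 3 probes at -3.14, -3.15 and -2.83, from 1640 to 397 on the brightest, of which a pair overlapped by 34 bases. UHRF1, the protein that keeps DNA methylation in place at replication, read 2720 and 1020 on one probe and 388 and 75.8 on the other, differences of -2.51 and -3.45. ACBD3, a Golgi adaptor, differed by -2.52 and -2.67, ZC3H6, a zinc-finger protein, by -2.32 and -2.54, and ANXA13, an annexin of epithelia, by -2.08 and -2.51. GNA11, a G protein subunit, differed by -2.69 and -2.78 on probes that overlap by 28 bases.

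Some entries of that set need care. TMSB4XP8 is a pseudogene of a thymosin gene, and its probes, at -3.26 and -3.10, overlap by 50 bases. RPS9, a ribosomal protein, differed by -2.49 and -2.76 on probes that overlap by 44 bases and read only 440 and 385 on the control array, while another probe of RPS9 read 22500 and 63200 and saturated at 24 h, at least 1.32-fold higher. More widely, 126 measured genes were read through a dimmer probe because a brighter one was saturated. Of the 126, 24 exceeded 2-fold upwards and 12 downwards, beside 7.09% and 9.61% of all genes. These 126 include HSPA8, NOP56, TRIB3, XBP1, F2 and EIF4A1 among the higher genes and ALB, TF, KRT18, ALDOA and SLC16A3 among the lower.

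Genes of drug metabolism outside the AhR list lay low, in contrast to the drug exporter ABCB1. Among targets of the xenobiotic receptors PXR and CAR, 5 of 10 measured genes were at least 2-fold lower and 1 higher, beside 9.61% and 7.09% of all genes, with a median of -1.01, which became 0.20 with spike-in scaling. CYP3A4, the main drug-oxidising enzyme of the liver, read 177 and 121, a difference of -1.64. GSTA2, a glutathione transferase, differed by -2.23 and -1.59 on its 2 probes. CYP2B6 differed by -2.29 on one probe and by -0.19 on the other, so that its call rests on a single reading. ABCB1 read 689.9 and 7616, 2.37 or 5.17-fold higher. Targets of NRF2, the antioxidant-response factor, were mixed, with 2 of 17 higher, 2 lower and a median of 0.31; PGD of the pentose phosphate pathway was 1.13 higher, and TXNRD1, a thioredoxin reductase, differed by -1.79.

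Glucose genes had list medians below 0 with the main scaling. Gluconeogenesis had 2 of 12 genes at least 2-fold lower and none higher, beside 9.61% and 7.09% of all genes. Its median was -0.59, or 0.62 with spike-in scaling. TAT, a tyrosine aminotransferase, differed by -1.54 and FOXO1, the insulin-restrained transcription factor, by -1.42 and -0.87. In glycolysis 1 of 18 genes was higher and 2 lower, with a median of -0.35. Its call for SLC16A3, a lactate exporter, at -4.03 came from a probe that read 331 and 43.4, beside a second probe saturated on both arrays.

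The integrated stress response had some raised members and a small list median. Of 22 targets of ATF4 and amino acid shortage 4 were at least 2-fold higher and none lower, beside 7.09% and 9.61% of all genes. The median was 0.15, and it ranged from 0.15 to 0.52 over the alternatives other than spike-in scaling. DDIT3, which encodes the factor CHOP, read 254 and 1880, a difference of 1.79. TRIB3, a pseudokinase, was 2.46 higher on a probe reading 981 and 11500, while its brighter probe was saturated on both arrays. DDIT4 was 1.07 higher, and STC2 was 1.10 higher on its brighter probe but at -0.26 on the other. Folding genes of the endoplasmic reticulum had 1 of 21 higher and 5 lower with a median of -0.06. PDIA4, a disulfide isomerase, read 5820 and 999, a difference of -3.64 on 1 probe, and ATF6, a sensor of that compartment, differed by -1.36, while XBP1 was 1.38 higher on a probe dimmer than its saturated one.

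Developmental and signalling genes included some deep single differences. SOX9, a progenitor-cell transcription factor that WNT signalling can induce, read 4170 and 816, a difference of -3.45 on 1 probe. ZNRF3 and AXIN2, negative-feedback regulators of WNT signalling, were lower on each of their probes, ZNRF3 by values of -1.98 and -0.35 and AXIN2 by -1.40, -1.66 and -0.70, and NOTUM, a secreted inhibitor of the same pathway, was 1.65 higher. Of 18 WNT targets 5 were at least 2-fold lower and 1 higher, beside 9.61% and 7.09% of all genes, with a median of -0.37. GATA6, a liver and gut transcription factor, read 1080 and 364, a difference of -2.66. NFKBIZ, an inducible NF-kappaB cofactor, differed by -3.03, from 490 to 128, and 2 of 15 genes of its list were lower and none higher. IL1RN, the interleukin 1 receptor antagonist, differed by -3.09 on its brighter probe and by 0.05 on its dimmer one.

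The other lists differed in how many members passed 2-fold, beside 7.09% of all genes higher and 9.61% lower. Interferon genes had 1 of 18 higher and 1 lower, oxidative phosphorylation 0 of 29 higher and 1 lower, and the circadian clock 0 of 16 higher and 1 lower. Immediate early genes had 0 of 24 higher and 4 lower, JUN at -1.93 and JUND at -1.54, and growth-arrest genes 2 of 21 higher and 7 lower, INSR, the insulin receptor, at -2.43. The p53 targets had 5 of 21 lower and none higher, with ZMAT3 at -2.55. Hypoxia genes had 2 of 26 in each direction. The BCL2 and death receptor list had 3 of 24 higher and 6 lower with a median of 0.05. Over the 47 lists with 5 or more measured genes, 24 medians were below 0; with spike-in scaling, 2 were, those of the metallothioneins and the replication-dependent histones.

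**Figure D3:**
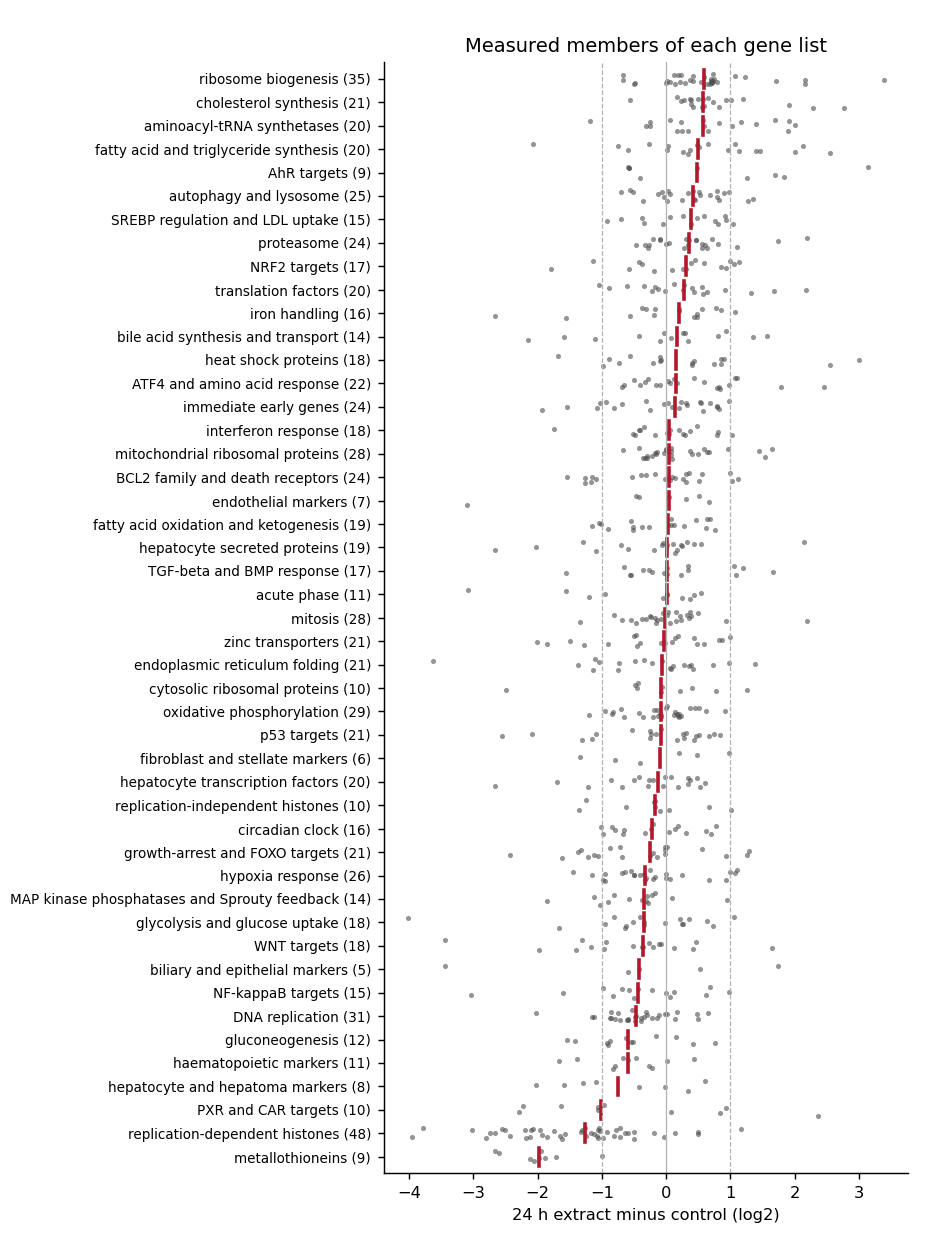
Differences (24 h extract minus control, log2) of the measured members of the 47 gene lists with 5 or more of them, ordered by median; each point is a gene on its brightest measured probe, red bars are medians, and dashed lines mark 2-fold. Metallothioneins (-1.98) and replication-dependent histones (-1.26) have the lowest medians and ribosome biogenesis (0.59) the highest; scaling to the spike-ins would move every point right by 1.21.

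The liver identity of the cells was readable on both arrays. All 12 hepatocyte and hepatoma markers were above background on both, and AFP, APOA1, APOB and SERPINA1 saturated on at least 1 of them. The bright markers give little information on change. TTR, the thyroxine carrier, read 51800 and 45200, a difference of -1.29 close to the ceiling of the scanner, and GPC3 read 40200 and 40300, a difference of -1.09. ALB differed by -2.03 on a probe reading 1530 and 801, while its brightest probe, at 55500 and 54400, was saturated. KRT18 differed by -1.58 on a probe reading 50.7 and 36.1, while 2 of its brighter probes, unsaturated on the control array at 14400 and 14900, saturated at 24 h and were at least 2.52-fold and 2.11-fold higher. The list median of -0.75 became 0.45 with spike-in scaling. HNF4A and FOXA2, hepatic transcription factors, differed by 0.60 and -0.01 on their brightest probes.

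Markers of other cell types were partly above background. Of the haematopoietic markers 11 of 14 were measured, with 2 at least 2-fold lower and none higher, beside 9.61% and 7.09% of all genes. Their median was -0.60 (0.61 with spike-in scaling). PTPRC, the pan-leukocyte gene, was not well above background on either array. Of the endothelial markers 7 of 11 were measured, and CDH5, KDR and TEK were not well above background on either. Of the fibroblast and stellate markers 6 of 12 were measured, and COL1A1, COL3A1 and LUM were not well above background. The largest differences among them were CLDN5 at -3.10, CD3E at -1.67 (-0.20 on its other probe) and CD79A at -1.38, and their part in the other values was not tested.

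Genes dim on 1 array allow bounds alone. Among the 543 genes dim on the control array 83 had a bound of at least 2-fold higher, each on 1 bright probe. Of the 543, 15 had 2 or more probes bright at 24 h, and none of the 15 reached 2-fold on the smaller bound. MYL4, a myosin light chain, was at least 1.59-fold higher, and TREM2, NRG1, ZNF586 and NFATC1 at least 1.43-fold, 1.21-fold, 1.19-fold and 1.15-fold. Among the 246 genes dim at 24 h 166 had a bound of at least 2-fold lower, and 2 of the 246 had 2 bright control probes. GPX8, an endoplasmic reticulum peroxidase, was at least 2.27-fold lower, and RTP1 at least 1.82-fold lower. Bounds set the dim probe at the higher of its own signal and the lowest signal well above background on that array.

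The 24 h differences can be read beside those of the shorter exposures, which share the same control array. In the order 1, 3, 6, 12 and 24 h, CYP1A1 differed from the control by 0.44, 2.75, 3.54, 3.87 and 3.14. NSDHL was 1.00, 1.59, 2.20, 2.37 and 2.77 higher in the same order, and FASN 1.34, 0.97, 1.58, 2.002 and 2.14. AHRR was at -0.31, 1.41, 4.34, 3.51 and 1.83. NSDHL and FASN thus had their highest value at 24 h, CYP1A1 at 12 h and AHRR at 6 h. SCD stayed under 2-fold up to 12 h, at 0.51, 0.92, 0.43, 0.49 and 2.55, and so did AQP3, at 0.06, 0.79, -0.05, 0.12 and 1.71. ABCB1 stood at 0.33, 0.73, -0.06, 0.84 and 2.37. Apart from AQP3, the raised genes of varied roles were above the control on every treated array. At 1 h CD2BP2 stood at 1.15, INTS11 at 1.14, OTUB1 and CRYAA at 0.99, and SRP68 and PRMT5 at 0.80. MAPKAP1 stood at 0.77 and ST7 at 0.27 at that time. What part the shared control array has in these values was not tested.

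Among the lowered genes the values took several courses over the arrays, of which some are given here. POGZ differed by -0.62, -1.41, -5.41, -4.08 and -3.74 from 1 to 24 h, the 6 h value not well above background, and SOX9 by -0.80, -1.62, -4.03, -3.14 and -3.45, so both were already low at 6 h. UHRF1 differed by 0.25, -0.11, -0.12, -0.57 and -2.51, and MT1F by 0.07, 0.20, 0.19, 0.26 and -2.67. MT1E was above the control at 6 and 12 h, at 2.52 and 1.81, and at -2.05 at 24 h, and MT1M went from 1.77 and 1.17 to -2.60. GSTA2 was at 1.12, 0.41 and -2.23 at these 3 times and CYP8B1, a bile acid hydroxylase, at 0.98, -0.31 and -2.15. The 6 h array was the dimmest, with a 75th percentile of 153 and 49.5% of probes well above background.

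**Figure D4:**
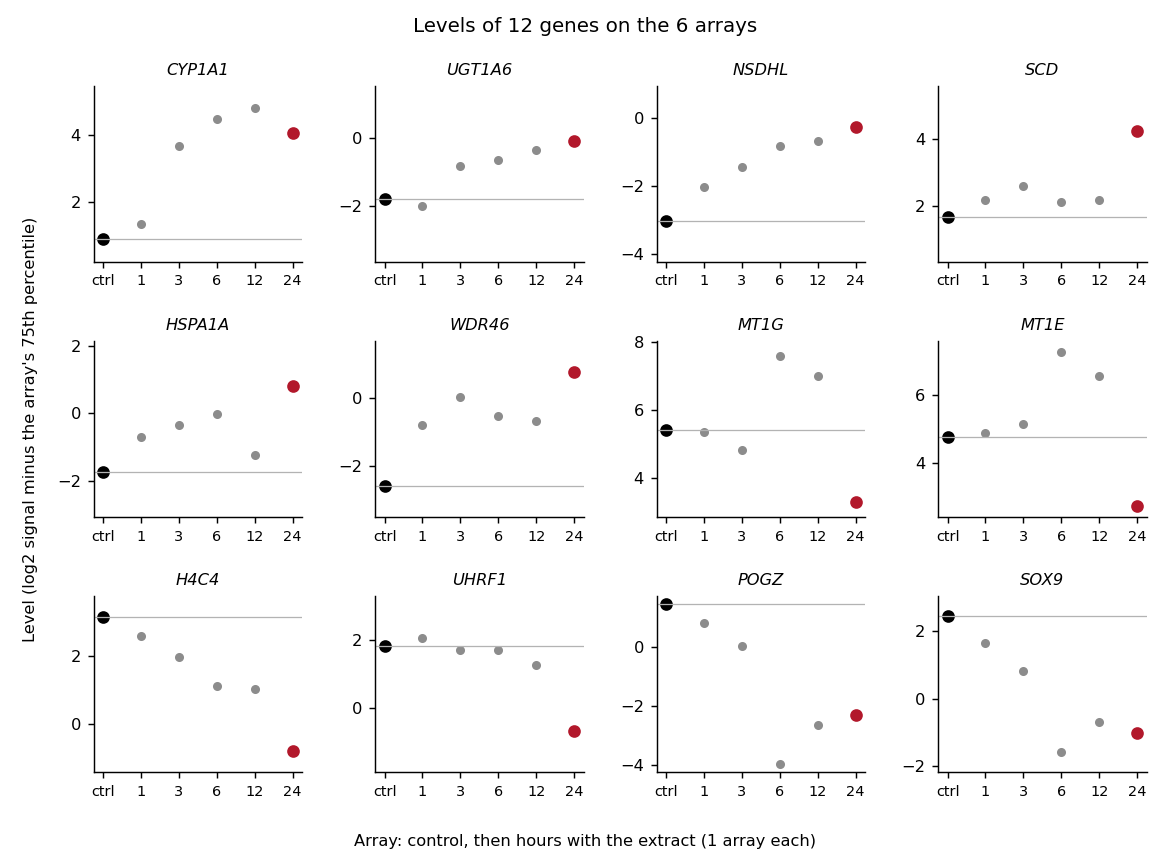
Levels of 12 genes on the 6 arrays (log2 signal minus the array's 75th percentile, the gene's brightest measured probe, 1 array per point); black is the control, grey the shorter exposures and red 24 h, and the line marks the control level. CYP1A1 and NSDHL are above the control on all 5 treated arrays, SCD and HSPA1A are highest at 24 h, and MT1G and MT1E are above the control at 6 and 12 h and below it at 24 h.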

How the data were processed

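RNA of HepG2 cells was purified with an RNeasy kit, which the labels' protocol names for mouse liver as well, and was amplified and labelled with an Agilent linear amplification kit for low RNA input. The labels name the dye Cy5, while the scanner files hold the green channel alone. The deposited scanner files hold intensity per spot, per the file headers, with a background-corrected processed signal that was not scaled between arrays. The authors' deposited value table holds unscaled linear intensity that matched each spot's median minus its local background within 0.51 for at least 99.3% of 35646 probes. Neither the scanner software's version nor a build for the probe coordinates is given in the sources used here.

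The 1639 control spots per array and 105 probes with outlier flags were left out, which left 40895 of 41000 probes. Log2 processed signals were averaged over a probe's spots, and each array's 75th percentile over all non-control spots was subtracted. Probes were named through RefSeq accessions and symbols of GRCh38.p14; 26789 had 1 symbol, 45 several and 14166 none. The brightest measured probe over the 6 arrays stood for a gene. With 1 array per group there are 0 residual degrees of freedom and no test was made; the number of arrays limits the precision. The code that counts agreeing genes was run on simulated differences of known size, which checks the counting and not the genes counted here. Calculations used Python 3.11.15, pandas 2.3.3, R 4.3.3 and limma 3.58.1. Alternatives were other scalings (median, quantile, cyclic loess, spike-ins), normexp background with an offset of 50, the deposited table, stricter and no filters on dim probes, and the median over probes.

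Genes were named by rule: the 12 most raised and 12 most lowered genes with 2 or more probes all at least 2-fold apart in one direction, ranked by the least-moved probe; up to 4 members of each of 48 gene lists with the largest differences; CYP1A1 and NSDHL; and up to 5 genes per direction with a bound shared by 2 probes. Members of the metallothionein, cholesterol synthesis, histone, AhR and marker lists outside that rule, and the genes next to the 2-fold threshold, were named after their values were seen. Some genes picked this way are left out of the text. The genes and lists were chosen with earlier results of these data known. Promoter sequences came from RefSeq on GRCh38.p14 and covered 250 bases before the start.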

Additional observations from a re-analysis of the deposited data

Results flagged for a closer look

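A few values stood apart from the rest of the comparison. Of 7607 probes without a gene name, 416 (5.47%) were at least 2-fold higher at 24 h and 1782 (23.4%) at least 2-fold lower. Named probes designed to RefSeq transcripts had 9.81% higher and 9.85% lower, so only the lower share of the unnamed probes exceeded theirs. For 5 named genes with probes unsaturated at 12 h, the 24 h and 12 h arrays lay at least 2-fold from the shared control on opposite sides, and these differences between times were not tested. RPS9 differed by -2.49 at 24 h and 2.02 at 12 h, MT1E by -2.05 and 1.81, and MT1M by -2.60 and 1.17. ALB differed by -2.03 and 2.14 and KRT18 by -1.58 and 1.62, both on probes dimmer than saturated ones of the same gene. At 3 and 6 h, RPS9 stood at -1.79 and 1.96, ALB at -1.92 and 1.83, and KRT18 at -1.08 and 2.23. MT1E, saturated at 3 h, stood at 0.37 and 2.52, and MT1M at 0.79 and 1.77. The 75th percentile was 1900 at 3 h and 1640 at 24 h, against 153 at 6 h and 420 at 12 h. What part array brightness has in these values was not tested. MT1G, whose probe was saturated at 12 h, differed by -2.12 at 24 h and 1.60 at 12 h.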

How the results depend on the processing

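No paired analysis was possible because each group holds 1 array, and no replicate could be left out. Counts of calls stayed within 1.5 times under quantile, loess, the deposited values, both dim-probe filters and the median over probes. Scaling to the array median gave 1539 genes higher, with 156 and 57 genes whose probes all agreed higher and lower. Normexp background gave 576 genes higher and 41 and 63 agreeing genes. Spike-in scaling gave 8308 higher and 150 lower, with 2077 and 8 agreeing genes, and of the 99 agreeing lower genes 8 remained. Of the 24 list medians below 0, spike-in scaling left 2 below 0. The medians it turned above 0 included those of PXR and CAR targets at 0.199, gluconeogenesis at 0.622, hepatoma markers at 0.453 and haematopoietic markers at 0.609. It also turned GCLC to 0.0713, ANGPTL4 to 0.0507, SLC25A20 to 0.162, PDK4 to 0.197, POLE2 to 0.0839, MDM2 to 0.0542, FOSB to 0.138, FOS to 0.184, CANX to 0.0649, EIF5 to 0.164, COX6C to 0.0123, HP to 0.0100, PER2 to 0.194, DUSP9 to 0.0906, SPRY1 to 0.174, BIK to 0.0324 and GPC3 to 0.117. The median over probes turned PGK1 to -0.456, RPS2 to -1.499 and EIF2S1 to -0.115. These follow from the constant shift of 1.21 and from probes that disagree. The genes listed for spike-in scaling were at least 2-fold lower with the main scaling, and smaller differences below 0 turned as well. Of the 47 list medians 30 kept their sign under every alternative other than spike-in scaling. With measured probes in 4 equal groups by control signal, which itself enters the difference, 2.33% of the brightest were at least 2-fold higher, against 13.2% of the dimmest; the cause was not tested.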

Other observations

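The base composition of a probe moved with the difference. With measured probes in 4 groups by G and C content, 5.22% of the lowest group were at least 2-fold higher and 12.7% lower, with a median of -0.09. In the highest group 14.1% were higher and 8.60% lower, with a median of 0.12. Over all measured probes the correlation was 0.09, across probes that share 2 arrays.

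Secretory and bile acid genes had wide single differences and middling medians. The list of secreted liver proteins had 1 of 19 measured genes at least 2-fold higher and 4 lower, with a median of 0.02. Over all genes 7.09% were higher and 9.61% lower, which also applies to the 2 lists below. F2, prothrombin, was 2.15 higher on a probe reading 218 and 2070, and TF, transferrin, differed by -2.67 on a probe reading 108 and 36.2, while brighter probes of both genes were saturated. Of 14 bile acid genes 2 were higher and 3 lower; FGFR4, the receptor that restrains bile acid synthesis, was 1.57 higher, CYP27A1 was 1.36 higher and CYP8B1 differed by -2.15. INHBE and SMAD6 of the TGF-beta and BMP list were 1.19 and 1.09 higher, and HAMP, the iron hormone hepcidin, differed by -1.56. In the autophagy and lysosome list 2 of 25 genes were higher and none lower, with a median of 0.41, led by CTSD and SQSTM1 at 1.36 and 1.28.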
